A study of Sus scrofa with 2 samples.

Results

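The substrate adaptors of cullin ubiquitin ligases were described in longissimus dorsi, a back muscle of the pig. Members were the rows of the deposited table whose Ensembl pig gene identifier carries a symbol of the FBXO, FBXL, FBXW, KLHL, KBTBD or ASB series followed by a digit, with FBXO32 left out. This gave 88 genes of 27987 entries, of which 11374 have a symbol: 40 F-box genes, 35 KLHL or KBTBD genes and 13 ASB genes. A further 29 identifiers with such a symbol are not analysed here. The pigs were crossbred barrows, castrated males of Duroc boars and Yorkshire-Landrace sows, 16 animals of 79.0 ± 1.5 kg from 8 litters, 8 per arm. For 21 days, the ambient temperature was a constant 22 °C for the control pigs and a constant 30 °C for the heat pigs, and no other agent or allele is named in the labels. There was 1 messenger RNA library per arm, and whether it pools the RNA of several pigs is not stated in the labels. Temperature, pigs, handling and library therefore cannot be told apart, and no value below has a replicate check or a p-value.

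Ubiquitin ligases attach the small protein ubiquitin to other proteins, often as a mark for the proteasome. In cullin ligases a cullin scaffold holds the catalytic RING subunit at its C-terminal end and an exchangeable adaptor at its N-terminal end, and the adaptor picks the substrate. F-box proteins join CUL1 through SKP1, BTB and kelch proteins (KLHL and KBTBD) join CUL3 directly, and ASB proteins, which carry ankyrin repeats and a SOCS box, join CUL5 through elongins B and C. In skeletal muscle such adaptors are known for the turnover of sarcomere proteins and of insulin signalling proteins, and several cause myopathy when mutated. Membership here rests on the symbol, so it says nothing of whether each protein forms a ligase in this tissue.

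Values are RPKM, reads scaled to gene length and library total, as the authors deposited them, so levels can be compared between genes per length. Where a pair of values stands together, the control value comes first. The control library held 23608242 reads and the heat library 22863584, both recovered from the values, and 1 read on a gene of 1 kb was worth 0.0424 and 0.0437 RPKM. In bulk tissue, fewer cells of a type and less RNA per cell cannot be told apart. Fibre genes defined the tissue, with 68749 and 65219 RPKM for skeletal muscle actin, ACTA1, and 10 of 16 listed fibre markers were matched. These 10 summed to 128303 and 123525 RPKM, and 4 of them had a log2 ratio above 0, with a median of -0.06. Summed over the matched markers, slow fibre genes (5 of 10 matched) stood at 5417 RPKM in control and 6396 in heat, and fast fibre genes (7 of 10) at 73392 and 70245. Fibroblast markers (8 of 9) summed to 975 and 881 RPKM, endothelial markers (5 of 8) to 136 and 155, smooth muscle and pericyte markers (5 of 7) to 54.6 and 48.1, adipocyte markers (5 of 9) to 59.1 and 56.7, and macrophage markers (5 of 7) to 10.9 and 14.4. Red blood cell markers (3 of 4, SLC4A1 listed at 0 in the heat library) summed to 89.5 and 113 RPKM, satellite cell markers (3 of 5) to 27.3 and 24.7, Schwann cell markers (2 of 5) to 21.2 and 17.3, and lymphocyte markers (5 of 6) to 2.41 and 3.27. Some of these sums rest on few genes. Of the matched markers with a mean RPKM of at least 1, those with a log2 ratio above 0 numbered 4 of 5 for slow fibres, 2 of 7 for fast fibres, 3 of 8 for fibroblasts, 4 of 5 for endothelium, 1 of 5 for smooth muscle and pericytes, 2 of 5 for adipocytes, 2 of 5 for macrophages, 1 of 2 for lymphocytes, 1 of 1 for red blood cells, 1 of 2 for satellite cells and 0 of 2 for Schwann cells. The adipocyte sum was held up by PLIN4 (33.7 and 39.6 RPKM), while CIDEC (7.56 and 3.48) and PLIN1 (10.1 and 6.64) were lower in the heat library. The macrophage sum was higher through LYZ (1.09 and 3.29) and CD68 (3.61 and 5.36), while MRC1 (1.29 and 0.959) was lower, and the list's median log2 ratio was -0.0080. The part of these markers in the differences below was not tested.

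The adaptors spanned a wide range of levels, and a few muscle genes held most of the signal. Of the 88 genes, 2 were listed at 0 in both libraries (FBXO41 and KLHL1), 21 had a mean RPKM above 0 and under 1, 29 lay from 1 to 5, 25 from 5 to 20, and 11 at 20 or more. The members together summed to 1178 RPKM at 22 °C and 1216 RPKM at 30 °C. ASB2 alone held 18.7% and 19.8% of these sums, and the 5 highest genes, ASB2, KLHL31, FBXO40, KLHL40 and ASB5, held 51.8% and 51.3%. The 13 ASB genes, the smallest family, took 35.7% and 37.4% of the summed level, against 35.3% and 33.7% for the KLHL and KBTBD genes and 29.0% and 28.9% for the F-box genes. The 9 highest members stood in the same order in both libraries. A list of 26 adaptor genes known from striated muscle, of which 17 are members here, took 74.1% and 73.7%, and all 17 had a mean RPKM of at least 1. The list was chosen with earlier results of these data known, so these values are no independent check. KLHL41, KLHL38, KLHL34, KBTBD13, FBXL22, ASB8, ASB12, ASB14 and ASB16 of that list are not analysed here. The shares and the order of the families leave these genes out.

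**Figure D1:**
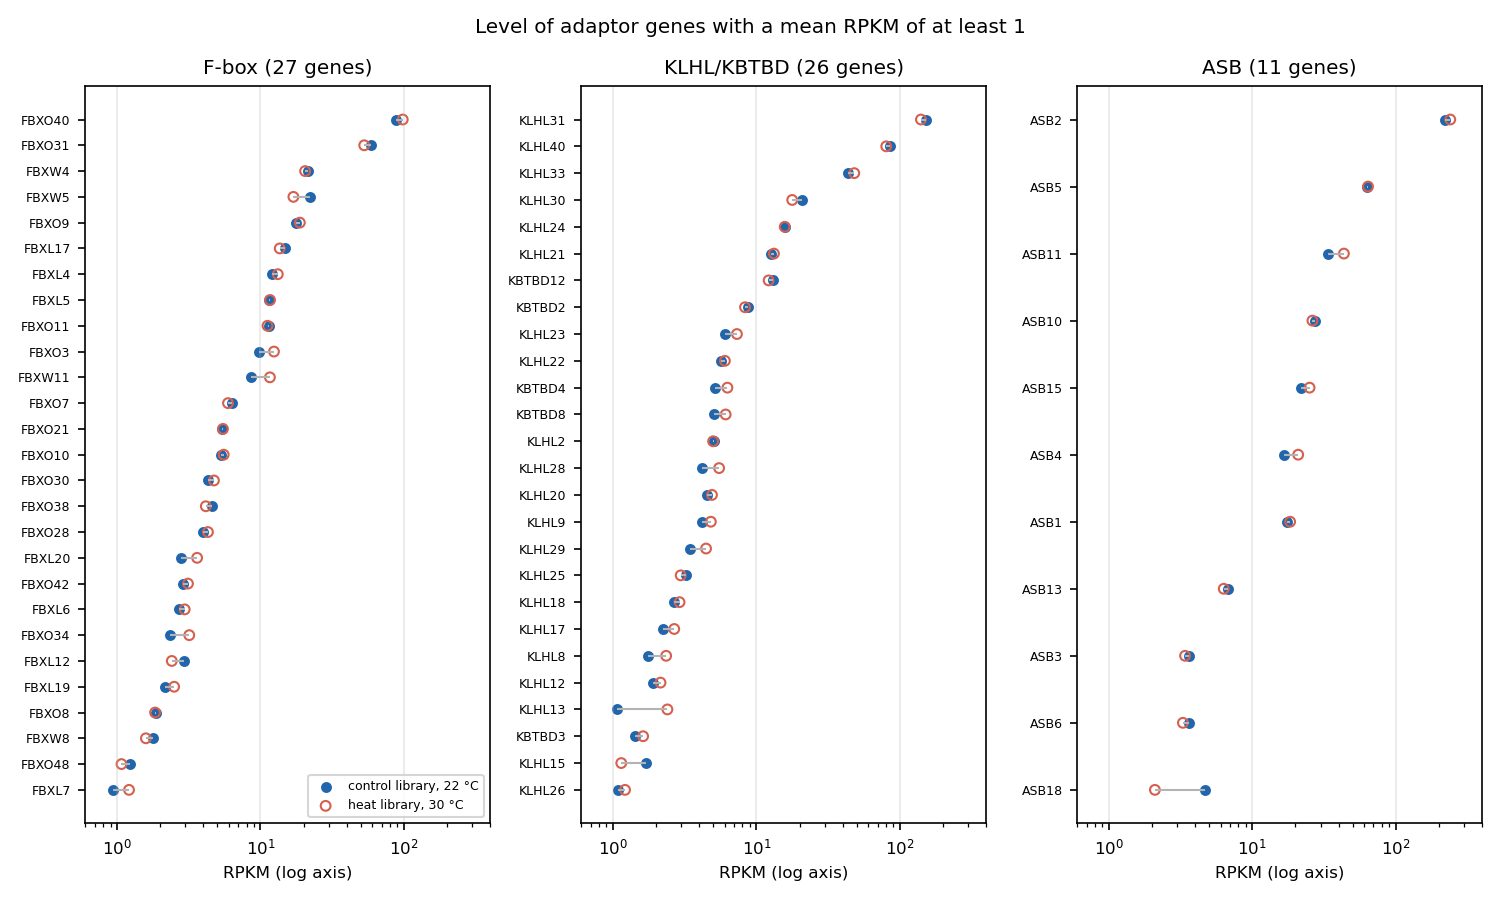
RPKM (log axis) of 64 of the 65 adaptor genes whose mean RPKM reached 1, by family, with filled points for the control library and open points for the heat library. ASB2 is the highest gene at 219.8 and 240.3 RPKM, and the widest gaps between the points are those of KLHL13 and ASB18.

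The comparison asked how adaptor levels differed between muscle of pigs kept at 30 °C and at 22 °C. Differences were mostly small. They are given as log2((heat RPKM + 1)/(control RPKM + 1)), a scale that understates low genes, over the 65 members with a mean RPKM of at least 1. KLHL13 was the only member at least 1.5-fold higher in the heat library, 1.54% of members beside 3.44% of all 13191 genes with such a mean. ASB18 was the only one at least 1.5-fold lower, 1.54% beside 2.37%. FBXO32, left out of the members by rule but counted among all genes, was past the higher limit, at a log2 ratio of 0.63. All members have a symbol. Of the 6990 genes with a symbol and such a mean, 87 were 1.5-fold higher and 41 lower. These are lower shares than among all genes and, with 1 member each way, than among the members. No member was 2-fold apart on this scale, where 0.629% of all genes were higher and 0.584% lower. The next member inside the lower limit was FBXW5 (-0.36). The median log2 ratio of the members was 0.08, beside 0.05 over all genes and 0.05 over genes with a symbol. Of the 65, 40 lay above 0, or 61.5% beside 58.8% of all genes, and 25 lay below, beside 41.2%. The all-gene median was passed by 37 members. The central 95% of members ran from -0.35 to 0.41, that of genes with a symbol from -0.39 to 0.47, and that of all genes from -0.57 to 0.66.

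**Figure D2:**
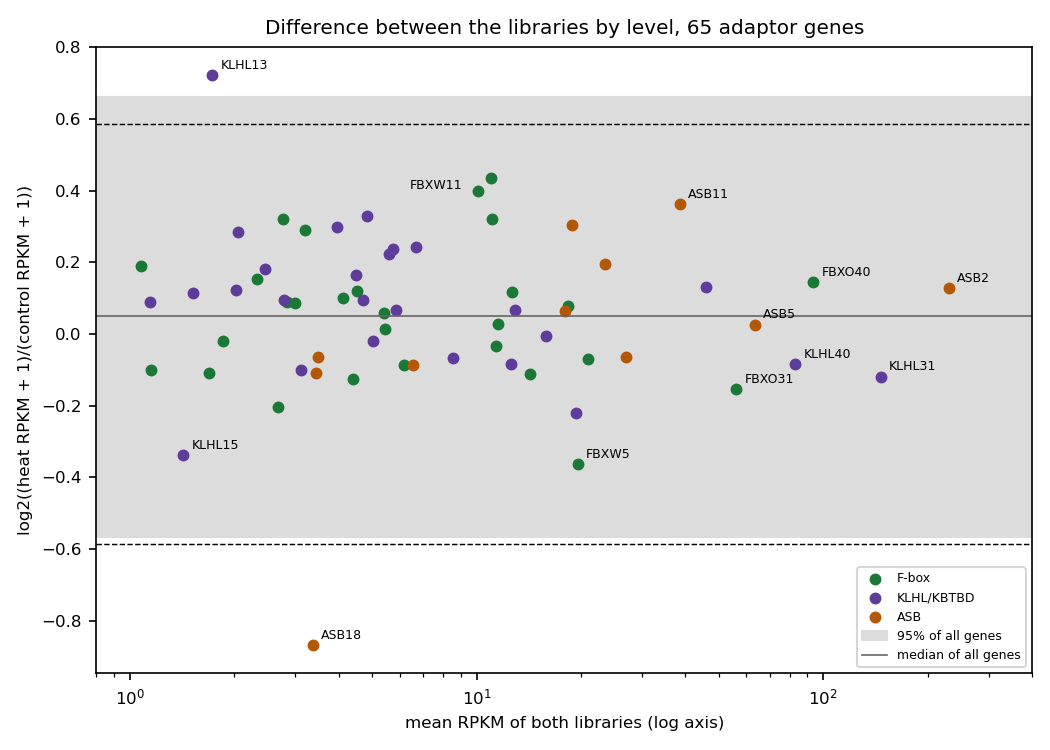
Log2 ratio of heat over control against the mean RPKM (log axis) for 65 adaptor genes, coloured by family, with dashed lines at 1.5-fold, a grey band that holds 95% of all genes and a line at their median. KLHL13 (0.72) and ASB18 (-0.87) are the 2 genes past the dashed lines, and both have a mean RPKM under 5.

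Whether a difference exceeded the counting error of 2 libraries is a separate matter from its size. A 95% Clopper-Pearson interval of the RPKM ratio was computed from the smallest whole reads that give the deposited values. Where the true reads are a larger multiple, it is wider than need be. It takes reads as independent, which amplified reads are not, so it can also be too narrow. It covers neither pigs nor library preparation. The interval lay above 1 for 14 of the 65 members, 21.5% beside 19.8% of all genes with an interval, and below 1 for 7, 10.8% beside 10.2%. These shares are near those of all genes and give no result about the adaptors as a group. Against the median RPKM ratio of all genes, 1.04, the interval lay above for 13 members, 20% beside 13.8% of all genes. It lay below for 8, 12.3% beside 14.7%. These gaps were not tested. Among the 14 were ASB2, ASB4, ASB11, ASB15, FBXO40, FBXO3, FBXO34, FBXW11, KLHL13, KLHL23, KLHL28, KLHL29 and KBTBD8, and the 7 were ASB18, FBXO31, FBXW5, KLHL15, KLHL30, KLHL31 and KLHL40. Centring on the median moved KBTBD8 out of the first set and brought FBXO38 into the second.

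Among the ASB genes, the muscle members ASB2, ASB4, ASB11 and ASB15 were higher in the heat library with counting intervals above 1, while ASB18 was lower. The family held 11 members with a mean RPKM of at least 1, 6 above 0 and 5 below, with a median log2 ratio of 0.03. ASB2 (ENSSSCG00000002467), which directs filamins to degradation during muscle differentiation, stood at 219.8 RPKM at 22 °C and 240.3 RPKM at 30 °C. This highest adaptor had a ratio of 1.09 (1.06 to 1.12), the narrowest interval of all members. ASB5 (ENSSSCG00000030395), a muscle gene linked to satellite cells, was nearly level at 63.0 RPKM at 22 °C and 64.1 RPKM at 30 °C, a ratio of 1.02 (0.964 to 1.08). Its log2 ratio of 0.03 turned negative after centring on the median of all genes. ASB11 (ENSSSCG00000012133), linked to muscle progenitors in zebrafish, stood at 33.7 RPKM at 22 °C and 43.5 RPKM at 30 °C. It had the highest log2 ratio of the family, 0.36, with a ratio of 1.29 (1.12 to 1.50) on at least 337 and 422 reads.

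ASB15 (ENSSSCG00000016606), a gene of muscle growth, was higher in the heat library too, at 21.8 and 25.1 RPKM with a ratio of 1.15 (1.05 to 1.26). ASB4 (ENSSSCG00000015333), known from vessel development and the turnover of the insulin receptor substrate IRS4, stood at 16.7 RPKM at 22 °C and 20.9 RPKM at 30 °C, a ratio of 1.25 (1.11 to 1.40). Of the 5 matched endothelial markers, 4 lay above 0, with a median log2 ratio of 0.19. PECAM1 (111 and 127 RPKM) made most of their sum, and its interval holds 1 (0.903 to 1.45). TEK and ERG had intervals above 1, that of ESAM holds 1, and KDR was lower (5.09 and 4.63 RPKM) with an interval that holds 1. The part of these markers in the ASB4 value was not tested. ASB10 was at 27.5 and 26.3 RPKM, with an interval that holds 1 (0.809 to 1.13). ASB13 and ASB6, the latter known as a partner of an insulin receptor adaptor in fat cells, had the lowest log2 ratios after ASB18, -0.09 and -0.11, and both intervals hold 1. ASB1 and ASB3 were the 2 other members, at log2 ratios of 0.06 and -0.06.

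ASB18 (ENSSSCG00000016318) showed the largest difference of the 65 members on the log2(RPKM + 1) scale, while on the RPKM ratio KLHL13 lay slightly farther from 1. It stood at 4.64 RPKM at 22 °C and 2.09 RPKM at 30 °C, on at least 71 and 31 reads, a ratio of 0.451 (0.286 to 0.697) and a log2 ratio of -0.87. Among the 11 ASB genes it was the lowest in mean level, and it was the only one whose interval lay below 1. With a pseudocount of 5 in place of 1 its log2 ratio was -0.44, and the 1.5-fold call was lost.

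Among the kelch genes, the abundant sarcomere adaptors KLHL31 and KLHL40 were slightly lower in the heat library, and KLHL13, KLHL28 and KLHL29, all of low level, were higher. Of 26 KLHL and KBTBD members with a mean RPKM of at least 1, 17 lay above 0 and 9 below, with a median log2 ratio of 0.09. Over the 13 whose mean RPKM reached 5 the median was -0.0067, with 6 above 0. KLHL31 (ENSSSCG00000001487), which acts on filamin C at the Z disc, stood at 153 RPKM at 22 °C and 141 RPKM at 30 °C, a ratio of 0.920 (0.889 to 0.953). KLHL40 (ENSSSCG00000011286), which stabilises nebulin and leiomodin 3 and causes nemaline myopathy when lost, stood at 85.3 RPKM at 22 °C and 80.5 RPKM at 30 °C, a ratio of 0.943 (0.900 to 0.988). KLHL30 (ENSSSCG00000026600), a muscle kelch gene, was at 20.9 and 17.8 RPKM, a ratio of 0.851 (0.791 to 0.916). All 3 intervals lay below 1 while the values differed by under 1.5-fold. With the libraries scaled to the same sum without the 10 highest genes, KLHL40 had a log2 ratio of -0.04 in place of -0.08. Intervals were not recomputed on that scale.

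KLHL33 went the other way, at 43.9 and 48.2 RPKM, with an interval that holds 1 (0.976 to 1.24). KBTBD12 was at 13.0 and 12.2 RPKM and KLHL24, known for the turnover of intermediate filament proteins, at 15.9 and 15.8, both with intervals that hold 1. KLHL24 had a log2 ratio of -0.01, whose sign turned to 0.03 when the libraries were scaled to the same sum without the 10 highest genes. KLHL21, an adaptor for aurora B in dividing cells, was at 12.6 and 13.3 RPKM (log2 ratio 0.07).

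KLHL13 (ENSSSCG00000012637) showed the largest difference on the higher side. This partner of KLHL9 in the mitotic control of aurora B stood at 1.06 RPKM at 22 °C and 2.40 RPKM at 30 °C, on at least 37 and 81 reads, a ratio of 2.26 (1.51 to 3.43) and a log2 ratio of 0.72. KLHL9 itself was at 4.18 and 4.81 RPKM (log2 ratio 0.17), with an interval that holds 1. With a pseudocount of 5 the log2 ratio of KLHL13 was 0.29, under 1.5-fold, and with 0.1 it was 1.11, past 2-fold. KLHL28 at 4.17 and 5.49 RPKM had a ratio of 1.32 (1.09 to 1.59), and KLHL29 at 3.43 and 4.46 had 1.30 (1.14 to 1.48). KLHL23 (6.03 and 7.32 RPKM) and KBTBD8 (5.09 and 6.10), an adaptor of neural crest development, also had intervals above 1. On the lower side KLHL15, the adaptor of a regulatory subunit of phosphatase PP2A, stood at 1.71 and 1.14 RPKM, a ratio of 0.668 (0.467 to 0.949) on at least 85 and 55 reads. KBTBD2, which limits the regulatory subunit of phosphoinositide kinase in insulin signalling, was at 8.77 and 8.33 RPKM (log2 ratio -0.07). The 15 kelch members that the naming rule leaves out, some of which appear above, had log2 ratios from -0.10 to 0.29, 12 of them above 0.

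**Figure D3:**
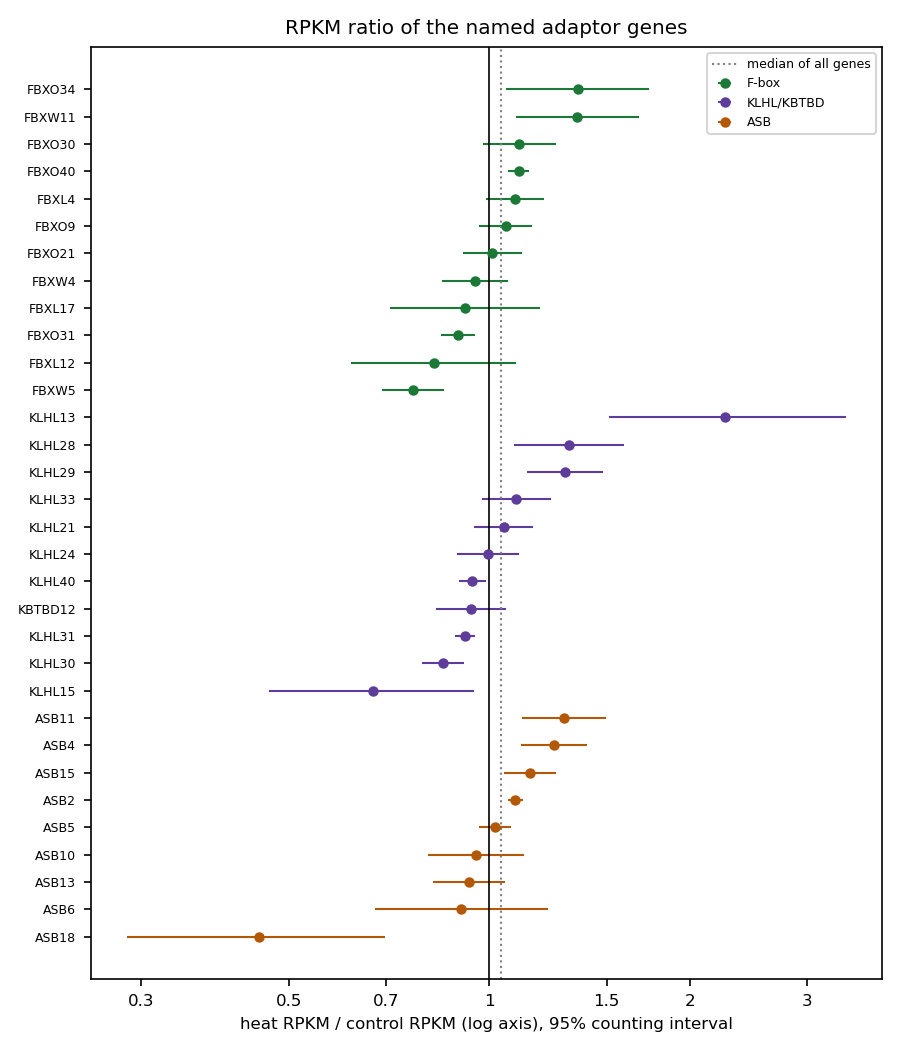
Ratio of heat over control RPKM (log axis) for 32 of the 33 adaptor genes named by rule, grouped by family, with 95% counting intervals as bars, a solid line at 1 and a dotted line at the median ratio of all genes. The interval of KLHL13 reaches from 1.51 to 3.43 and that of ASB18 from 0.286 to 0.697, while those of the abundant genes ASB2, FBXO40 and KLHL31 are the narrowest.

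Among the F-box genes, FBXW11 was among the highest in the heat library relative to control and FBXW5 was the lowest. Of 28 members with a mean RPKM of at least 1, 17 lay above 0 and 11 below, with a median log2 ratio of 0.07. By subfamily, 7 of 9 FBXL genes, which carry leucine-rich repeats, lay above 0 (median 0.12), 9 of 15 FBXO genes did (median 0.06), and 1 of 4 FBXW genes, which carry WD40 repeats, did (median -0.09). Over all genes, 58.8% lay above 0. The counting interval held 1 for 8 of the 9 FBXL genes, 11 of the 15 FBXO genes and 2 of the 4 FBXW genes. Differences between the subfamilies were not tested.

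FBXW11 (ENSSSCG00000023307), one of the β-TrCP adaptors that degrade inhibitors of NF-κB and β-catenin, stood at 8.59 RPKM at 22 °C and 11.6 RPKM at 30 °C, a ratio of 1.35 (1.10 to 1.68). Its paralogue BTRC, whose symbol falls outside the membership rule and which was picked once its value was known, had values of 4.07 and 5.11 RPKM, a ratio of 1.26 (1.08 to 1.46). Reads from the stretches these paralogues share could be split between them. FBXW5 (ENSSSCG00000005839), which also works with CUL4 and DDB1, stood at 22.1 RPKM at 22 °C and 17.0 RPKM at 30 °C, a ratio of 0.768 (0.689 to 0.855). It took place 10 among the members in the control library and place 16 in the heat library. FBXW4 was at 21.5 and 20.5 RPKM, with an interval that holds 1.

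The 2 most abundant F-box genes differed in opposite directions by small amounts. FBXO40 (ENSSSCG00000011885), a muscle adaptor that degrades the insulin receptor substrate IRS1, stood at 88.8 RPKM at 22 °C and 98.3 RPKM at 30 °C, a ratio of 1.11 (1.07 to 1.15). IRS1 itself was at 28.5 and 30.2 RPKM, a ratio of 1.06 (1.003 to 1.12). FBXO31 (ENSSSCG00000002654), known for the degradation of cyclin D1 after DNA damage, stood at 59.0 RPKM at 22 °C and 52.9 RPKM at 30 °C, a ratio of 0.897 (0.846 to 0.951). FBXO30, known as MUSA1 in muscle wasting, was at 4.28 and 4.74 RPKM (log2 ratio 0.12) and FBXO21, known there as SMART, at 5.42 and 5.48 (log2 ratio 0.01, below 0 after centring). FBXO32, the atrogin-1 gene that is no member here, had a ratio of 1.57 (1.45 to 1.70) and a log2 ratio of 0.63, above that of each of the 28 F-box members.

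FBXO34 stood at 2.35 and 3.19 RPKM, a ratio of 1.36 (1.06 to 1.74), and FBXO3 at 9.76 and 12.4, a ratio of 1.27 (1.09 to 1.49). FBXL12 was the lowest F-box gene after FBXW5, at 2.92 and 2.41 RPKM, with an interval that holds 1 (0.619 to 1.09). FBXL4, a mitochondrial protein that restrains mitophagy, was at 12.1 and 13.2 RPKM (log2 ratio 0.12). FBXO9, an adaptor for proteins of the mTOR pathway, was at 17.8 and 18.8 (log2 ratio 0.08). FBXL17, which removes wrongly paired BTB proteins, a class that includes the kelch adaptors, was at 14.8 and 13.6 RPKM (log2 ratio -0.11). FBXL5, the iron sensor of the cell, was at 11.4 and 11.7 RPKM (log2 ratio 0.03). The intervals of FBXL4, FBXO9, FBXL17 and FBXL5 hold 1. The 15 F-box members that the naming rule leaves out had log2 ratios from -0.13 to 0.32, 9 of them above 0.

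Among the shared parts of the ligases, elongin C was higher in the heat library and the RING subunit RNF7 lower, both by under 1.5-fold. Of 13 genes listed for the ligase core, 11 were matched, without SKP1 and RBX1, and 5 lay above 0 and 6 below, with a median log2 ratio of -0.0034 and none 1.5-fold apart. The counting interval lay above 1 for 3 of the 11 (ELOC, CUL3 and CUL5) and below 1 for 2 (RNF7 and CUL4A), beside 19.8% and 10.2% of all genes. Against the median ratio of all genes it lay above for 1 and below for 3, and those of CUL3 and CUL5 held the median. CUL3, the scaffold of the kelch adaptors, stood at 33.5 and 35.8 RPKM, a ratio of 1.07 (1.001 to 1.14). CUL5, that of the ASB adaptors, stood at 26.4 and 28.5 RPKM, a ratio of 1.08 (1.01 to 1.15). CUL1, that of the F-box adaptors, stood at 16.9 and 18.6 RPKM. Its recovered minimum was only 15 and 16 reads, and the interval from these, 0.51 to 2.39, holds 1 and is wide. Elongin C, ELOC, had the highest log2 ratio of the core, 0.18, at 46.6 and 52.8 RPKM with a ratio of 1.13 (1.07 to 1.19), followed by CUL1 (0.13). RNF7, the RING subunit that works with CUL5, had the lowest, -0.17, at 35.9 and 31.9 RPKM with a ratio of 0.888 (0.831 to 0.95), followed by CUL7 (-0.14). ELOB, the partner of ELOC in the same adaptor complex, was at 285 and 277 RPKM (log2 ratio -0.04).

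Cullins are switched on by the ubiquitin-like protein NEDD8 and switched off by the COP9 signalosome, and CAND proteins exchange their adaptors. Of 23 genes listed for these steps 13 were matched and 12 had a mean RPKM of at least 1, 8 above 0 and 4 below, with a median log2 ratio of 0.07 and none 1.5-fold apart. DCUN1D2, a NEDD8 ligase subunit, was highest at 15.4 and 18.2 RPKM (0.23), followed by the signalosome subunit COPS2 (0.18). Another signalosome subunit, COPS7A, was lowest at 44.0 and 39.5 RPKM (-0.15), followed by DCUN1D3 (-0.12). CAND2, the muscle form of the exchange factor, was at 48.0 and 46.6 RPKM and CAND1 at 0.288 and 0.334.

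Other adaptors of cullin ligases, outside the symbol rule, were listed for comparison. Of 56 listed genes 40 were matched and 35 had a mean RPKM of at least 1, 24 above 0 and 11 below, with a median of 0.06 and none 1.5-fold apart. The counting interval lay above 1 for 12 of the 35 and below 1 for 5, beside 19.8% and 10.2% of all genes. It did so for 14 and 7 of the 65 members, 21.5% and 10.8%. Against the median ratio of all genes it lay above for 8 of the 35 and below for 5. The lists differ in level, with a median mean RPKM of 10.5 over the 40 matched genes and 3.47 over the 88 members. The difference between the lists was not tested. SPOP, a CUL3 adaptor, was highest at 11.5 and 14.5 RPKM (0.32), followed by SOCS5 (0.30). LRRC41 was lowest at 9.92 and 8.22 RPKM (-0.24), followed by FEM1C (-0.16).

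Reported substrates of the adaptors were given for comparison. Of 20 listed genes 14 were matched and 13 had a mean RPKM of at least 1, 6 above 0 and 7 below, with a median log2 ratio of -0.03. NEB, nebulin, the client of KLHL40, stood at 758 and 677 RPKM (log2 ratio -0.16), and FLNC, filamin C, the substrate of KLHL31, at 320.0 and 275 (-0.22). Both were lower in the heat library, as KLHL40 and KLHL31 were, while ASB2, which directs filamins to degradation, was higher (219.8 and 240.3 RPKM). NEB is also a listed fibre marker, and of the 10 matched fibre markers 4 lay above 0 and 6 below. Whether adaptor and substrate levels are linked was not tested. DES, desmin, which ASB2 targets, was at 2203 and 2567 RPKM (0.22). MYC was the highest of the list at 2.66 and 3.94 RPKM (0.43) and MYOD1, the myogenic factor degraded through FBXO32, the lowest at 12.9 and 10.3 (-0.30). These are messenger RNA levels and hold no measure of protein turnover. Atrophy and glucocorticoid genes listed beside them ran from NR3C1 (0.05) and FOXO1 (0.14) to FBXO32 and FKBP5 (1.10), with all 8 above 0 and a median of 0.27. They were chosen with earlier results of these data known, so this is no independent contrast with the families.

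**Figure D4:**
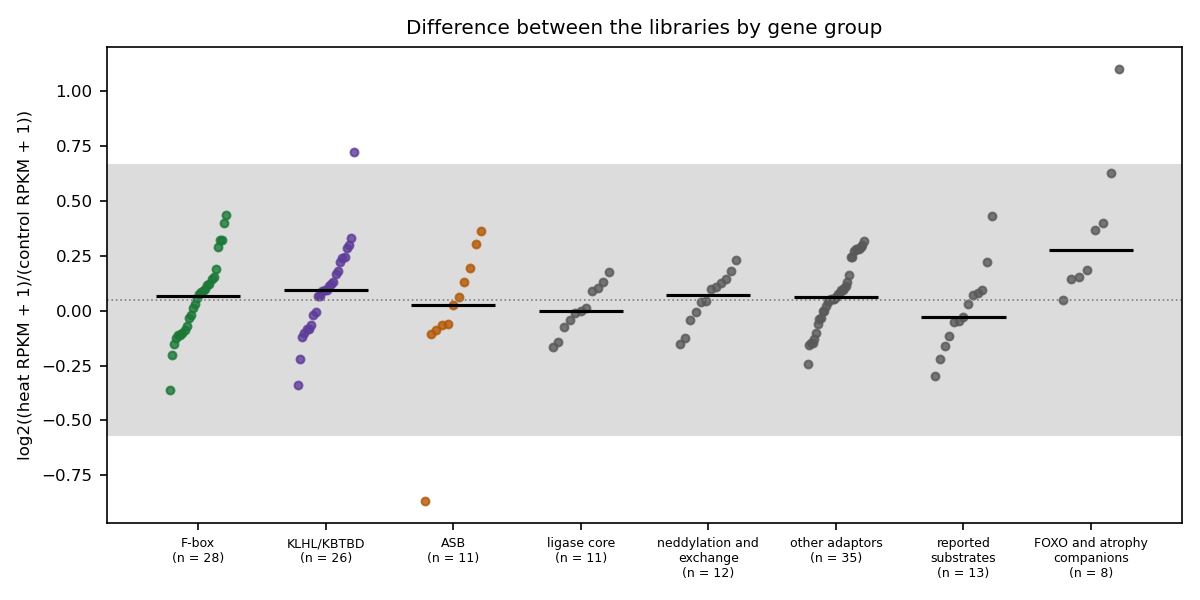
Log2 ratio of heat over control for genes whose mean RPKM reached 1, as points, in the 3 adaptor families and 5 comparison lists, with black bars at the medians, a grey band that holds 95% of all genes and a dotted line at their median. The family medians (0.07, 0.09 and 0.03) lie near the line. The atrophy list, chosen with earlier results of these data known, has the highest median (0.27).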

How the data were processed

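Messenger RNA was measured in 2 libraries, 1 per arm. Per the labels' protocols, each started from 3 µg of RNA, was enriched for poly(A), primed at random, selected for 200 bp fragments and amplified for 10 cycles. The authors deposited 1 RPKM value per gene and library. Per the submitters' processing notes, the build was Sscrofa10.2, and TopHat 1.4.0, Bowtie and Cufflinks 1.3.0 are listed without their roles. For reads with several matches, no treatment is given in the sources used here, so paralogues can share reads. No strand marking is stated, so a gene and an overlapping or antisense gene cannot be separated.

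Symbols came from a table of pig gene names. The log2 ratio of RPKM used a pseudocount of 1, over genes whose mean RPKM reached 1, counted at 1.5-fold and 2-fold. Whole reads were recovered from the ratio of the 2 deposited values: for 99.99% of the 19550 entries with 2 nonzero values, reads of up to 200000 matched within the last printed digit. With so many reads allowed most ratios would match, so this share is a weak check. The smallest pair was multiplied by up to 12 where the gene length was not whole within 0.01 bp. Lengths were whole for 74.8% with the smallest pair and for 97.2% after this step. The control total was itself set to make the most lengths whole. Intervals are Clopper-Pearson at 95% and cover counting error only. Amplified reads with no molecular identifier are not independent, so the intervals can be too narrow. The steps were tested on simulated reads.

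Named genes were, per family, the 6 highest in level and the 3 highest and 3 lowest log2 ratios, all members 1.5-fold apart, all on the muscle list, and the 2 highest and 2 lowest of each comparison list, with substrates of described members. Of the genes this rule gives, 2 are not reported here. Other genes named were chosen after their values were seen. Members and lists were chosen with earlier results of these data known. Alternatives covered pseudocount, filter, scaling, summed entries and counting interval. Python 3.11.15, numpy 2.4.6, pandas 2.3.3 and scipy 1.17.1 were used. RefSeq gene order on Sscrofa11.1 named neighbouring genes, and no coordinates or sequences are printed.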

Additional observations from a re-analysis of the deposited data

How the results depend on the processing

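No paired analysis was possible because only 1 library stands for each group. The single members at least 1.5-fold higher (KLHL13) and lower (ASB18) became 0 and 0 at pseudocount 5, and also among the 36 members whose mean RPKM reached 5. With a pseudocount of 0.1, 1 member was 2-fold higher and 1 was 2-fold lower, where there had been 0 and 0. Over all genes the 454 higher and 313 lower at 1.5-fold became 934 and 565 at pseudocount 0.1, 53 and 59 at pseudocount 5, 785 and 482 without the filter, and 97 and 69 once the filter was set at 5. The 83 and 77 at 2-fold became 290 and 193 at pseudocount 0.1, 7 and 20 at pseudocount 5, and 17 and 26 under the filter at 5. The balance at 1.5-fold moved with scaling. Median centring gave 375 higher against 377 lower, trimmed mean scaling 373 against 366, and a sum that omits the 10 highest genes 523 against 284. With an interval that also leaves out 1, 337 genes were 1.5-fold higher and 206 lower. Under the filter at 5, 21 of 36 members lay above 0, 9 of 15 F-box and 6 of 13 kelch genes, with 18, 7 and 6 above the median of all genes. The kelch median was then -0.0067, where it had been 0.09. The cause of these changes was not tested. Other medians moved by less than 0.1 in the alternatives run. The all-gene median moved little with scaling, from 0.05 to 0.00 with the trimmed mean and to 0.09 without the 10 highest genes. Of 33 named members 30 kept 1 sign in these alternatives, and ASB5, FBXO21 and KLHL24 did not. The interval against the median ratio of all genes was added after seeing the data, and the others were planned. Depth limits the low members most: at 1 kb a single read of the control library makes 0.0424 RPKM.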

Other observations

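Of the 23 members with a mean RPKM under 1, 18 were above 0 in both libraries, and 15 of these had a counting interval that holds 1. The 3 others were picked for their values. FBXO39 had 0.286 and 0.919 RPKM (at least 9 and 28 reads), a ratio of 3.21 (1.47 to 7.74). ASB7, an adaptor of spindle proteins that lay just under the filter, was at 0.752 and 1.20 RPKM, a ratio of 1.59 (1.18 to 2.15). FBXO33 had 0.375 and 0.188 RPKM (at least 33 and 16 reads), a ratio of 0.501 (0.257 to 0.936). FBXO2 and KLHL14 were listed at 0 in the control library only and FBXO36 in the heat library only. ASB9, known to bind creatine kinase, was at 0.735 and 0.705 RPKM, and KLHL3, the adaptor for WNK kinases, at 1.003 and 0.844.

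On the RefSeq assembly Sscrofa11.1, used here only for gene order, 1 pair of members stood side by side, ASB9 and ASB11. ASB11 was at 33.7 and 43.5 RPKM beside the low values of ASB9. A neighbour of ASB4 was PDK4, the pyruvate dehydrogenase kinase, at 33.8 and 86.1 RPKM (log2 ratio 1.32), and the other neighbour, PON2, was listed at 0 in both libraries. Both genes of the ASB4 and PDK4 pair were higher in the heat library, and whether they share reads was not tested. These neighbours were picked for their values.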
